A study of Mus musculus with 2 samples.

Results

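Mitochondrial ribosomal protein genes were followed in cultured mouse pericytes kept in normal or high glucose. They were taken as all genes named Mrpl or Mrps plus a number, for the large and the small subunit of the mitochondrial ribosome. Of 20887 genes named on the array, 78 were such genes, 49 of the large and 29 of the small subunit. They were represented by 100 probes, 1 probe for each of 56 genes and 2 for each of 22. The rule used names and no measured value.

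The cells were primary pericytes, contractile cells that wrap small vessels, from the cavernous tissue of the penis of C57BL/6 mice. Both groups grew in DMEM with 20% FBS and the human factor PEDF (pigment epithelium-derived factor) at 10 nM. For 72 h they were exposed to glucose labelled 5 mmol (normal glucose) or 30 mmol (high glucose), with no volume stated, and an osmotic control was not used here. RNA of 3 samples was pooled per condition and hybridised to 1 array, so there were 2 arrays, no replicate and no test. All differences below are between these 2 pools.

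The mitochondrial ribosome translates the few proteins that mitochondrial DNA encodes, all of them core subunits of the respiratory chain and the ATP synthase. Its RNAs come from mitochondrial DNA, but its proteins are encoded in the nucleus, made in the cytosol and imported. Many have a counterpart in bacteria, and others arose with mitochondria and extend the particle. The genes are expressed in nearly all cells. In structures of the mammalian particle, Mrps30 and Mrps18a sit in the large subunit in spite of their names. Mrps36 belongs to a matrix enzyme complex instead.

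Of 59305 gene spots, the scanner software called 56.3% (normal) and 57.6% (high glucose) well above background and none saturated, and the number of arrays limits the precision. Of 10 pericyte markers 9 were measured, with signals from 93.9 to 61844 in normal glucose, and Kcnj8 was too dim on both arrays. All 4 smooth muscle and all 4 fibroblast markers were measured too, so these lists do not single out pericytes. Summed over each list, dim probes included, pericyte markers reached 118570 (normal) and 108819 (high glucose). The sums were 641653 and 619871 for smooth muscle and 233771 and 214996 for fibroblast markers. Of 4 markers each, 2 endothelial, 3 immune and 1 epithelial marker were measured, with sums of 7491, 22477 and 613 in normal and 7196, 23075 and 555 in high glucose. Single markers made up most of 2 of these sums in normal glucose, Kdr with 7379 of the endothelial and Itgam with 21959 of the immune sum. Among the unmeasured were Cdh5, Tek and Epcam. The part of these levels in the results was not tested.

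The mitochondrial ribosomal protein genes were nearly level between the pools, with a single exception in the small subunit. Of the 78 genes, 77 were well above background on both arrays. Between the pools, high over normal glucose, their log2 ratios had a median of -0.004 and an SD across genes of 0.073, against -0.007 and 0.241 over 14176 measured named genes. The ratio lay within 0.1 of 0 for 72 of 77 genes (93.5%), against 60.2% of all measured genes and 76.1% of the 7088 genes brighter than the median gene. That last set is the nearer comparison, since the signals of the 77 genes were high, with a median of 13023 in normal glucose. They ran from 553 for Mrpl35 to 86644 for Mrpl33. Signals of different probes do not rank genes by abundance.

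Only Mrps6 was past 1.2-fold, a log2 ratio of 0.26, and it was higher in high glucose. None of the 77 genes was 1.2-fold lower, and none was past 2-fold in either direction. Among all measured genes, 6.8% were 1.2-fold higher and 5.51% lower, while 0.501% were 2-fold higher and 0.416% lower. Among the brighter genes the shares past 1.2-fold were 2.06% and 1.07%. A count of 1 higher and 0 lower among 77 is below the shares of all genes and near those of the brighter ones. No test of this difference was possible.

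**Figure D1:**
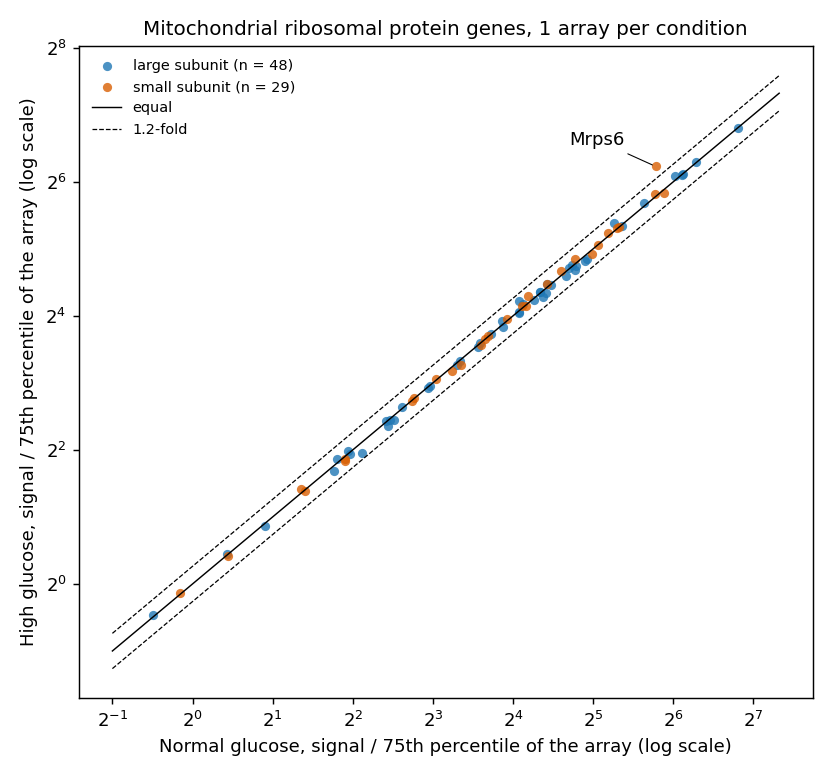
Each point is 1 of 77 genes, with its signal over the 75th percentile of the array in normal (x) and high glucose (y), both on log scales; colour gives the subunit by name. The points follow the line of equal level, and Mrps6 alone lies outside the dashed 1.2-fold lines.

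Signals below are as scanned, whereas each ratio is taken after every array was divided by its own 75th percentile, 774 in normal and 733 in high glucose. This adds 0.08 to the log2 ratio, and 73 of 77 genes had a lower raw signal in high glucose. Probes printed 10 times give the error inside an array pair. Over their spots the log2 ratio varied with a median SD of 0.0319 at log2 signals above 12, where 63 of the 77 genes lay, and of 0.0445 at log2 signals from 9 to 12. These SDs cover printing and scanning only, not differences between pools or probes. By this measure 62 of 77 ratios lay within 2 SD of 0, 6 were higher and 9 lower. The share of all measured genes beyond 2 SD was not counted, so these counts have no background beside them. The SDs are medians over probes, with 90th percentiles of 0.0463 and 0.0848 in the same 2 bands. Genes near the cut can fall inside it under another scaling, as Mrpl28 did at -0.054 after quantile normalization. Because most ratios are so small, counts of higher and lower genes depend on the scaling. With each array centred on its median, 4 of 48 genes of the large subunit and 4 of 29 of the small were higher, and of all measured genes 27.3% in place of 46.8%.

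The large subunit had a median log2 ratio of -0.010 over its 48 measured genes, 21 of them higher and 27 lower. The highest were Mrpl45, which holds the ribosome to the inner membrane, and Mrpl14, a protein of the face where the subunits meet. Mrpl45 read 13004 in normal glucose and 13633 in high glucose, a log2 ratio of 0.15. Mrpl14 read 29756 and 30813, a log2 ratio of 0.13. These 2 were the only large subunit genes more than 2 repeat-spot SDs above 0. Dim spots around Mrpl45 were shifted by 0.32 in the same direction, while those around Mrpl14 were shifted by -0.02. Mrpl46 and Mrpl48 of the central protuberance, the crest of the large subunit, followed at 0.07 and 0.06, with Mrpl51 at 0.06.

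The lowest member of the whole family was Mrpl9, the counterpart of bacterial protein bL9. It read 3366 in normal glucose and 2845 in high glucose, a log2 ratio of -0.16, or 1.12-fold lower. Next came Mrpl38 of the central protuberance at -0.09, from 2628 and 2340, and Mrpl30 at -0.09, from 15992 and 14235. Mrpl53, specific to mitochondria, had -0.09 from 21263 and 18951. Mrpl10, which anchors the stalk that recruits translation factors, had -0.08 from 4188 and 3746.

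Mrpl23 and Mrpl24 both line the exit of the peptide tunnel. They had log2 ratios of -0.08 and -0.07, and dim spots around Mrpl24 were shifted by -0.60. Mrpl2 and Mrpl28 both had -0.07. Except for Mrpl38, whose dimmer signal has a larger error, these 8 genes from Mrpl9 to Mrpl28 lay more than 2 repeat-spot SDs below 0. Mrpl12, the stalk protein itself, stood near 0 at 0.01 from 15633 and 14900. Mrpl58, a hydrolase that frees stalled chains, had -0.03 from 13085 and 12095.

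Mrpl21 was the only member of either subunit not well above background. Its sole probe read 5.7 in normal glucose and 5.1 in high glucose, so no ratio is given for it.

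The small subunit had a median of 0.007 over 29 genes, 16 higher and 13 lower, and 0.005 over 28 genes without Mrps6. The SD across its genes was 0.093 with Mrps6 and 0.044 without it. After Mrps6 the highest was Mrps18c, the counterpart of bacterial bS18, which pairs with the Mrps6 counterpart on the platform of the bacterial small subunit. It read 14088 in normal glucose and 14310 in high glucose, a log2 ratio of 0.10. Mrps34 had 0.07 from 18731 and 18663, though dim spots around it were shifted by 0.93. Mrps12, a protein of the decoding centre, had 0.07 from 21285 and 21070, and Mrps11 of the platform 0.06 from 1977 and 1947. Mrps11 alone of these 4 lay within 2 repeat-spot SDs of 0.

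At the low end of the small subunit stood 4 proteins with bacterial counterparts. Mrps10, of the head, had a log2 ratio of -0.08 from 7886 in normal and 7068 in high glucose. Mrps7, also of the head, had -0.06 from 24502 and 22192, and Mrps9 -0.06 from 2900 and 2626. Mrps15 had -0.06 from 7305 and 6640, and Mrps21 came next at -0.04. Only Mrps10 was more than 2 repeat-spot SDs below 0.

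The 3 paralogs Mrps18a, Mrps18b and Mrps18c occupy different places in the particle. Mrps18a, of the large subunit, had a log2 ratio of -0.00 from 9731 and 9197. Mrps18b, of the small subunit, had 0.02 from 30843 and 29553, and its second probe gave -0.07. All 3 lay within 1.2-fold. Mrps36, outside the ribosome, had 0.01 from 11823 and 11295.

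The medians of the subunits differed by -0.018, large minus small. It could not be tested with 1 array per condition. With subunits assigned by structure the difference was -0.012, with medians of -0.006 and 0.005. Split by origin, proteins with a bacterial counterpart had a median of -0.016 in the large subunit (11 of 29 higher) and -0.021 in the small (7 of 16 higher). Those specific to mitochondria had 0.000 (11 of 21 higher) and 0.014 (7 of 10 higher). The median of all measured genes was -0.007, and 46.8% of them were higher. These counts depend on the processing. With the position trend removed, 10 of 29 and 8 of 16 genes with a bacterial counterpart were higher. Of those specific to mitochondria, 13 of 21 and 4 of 10 were then higher, so the small subunit showed the opposite contrast by origin.

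**Figure D2:**
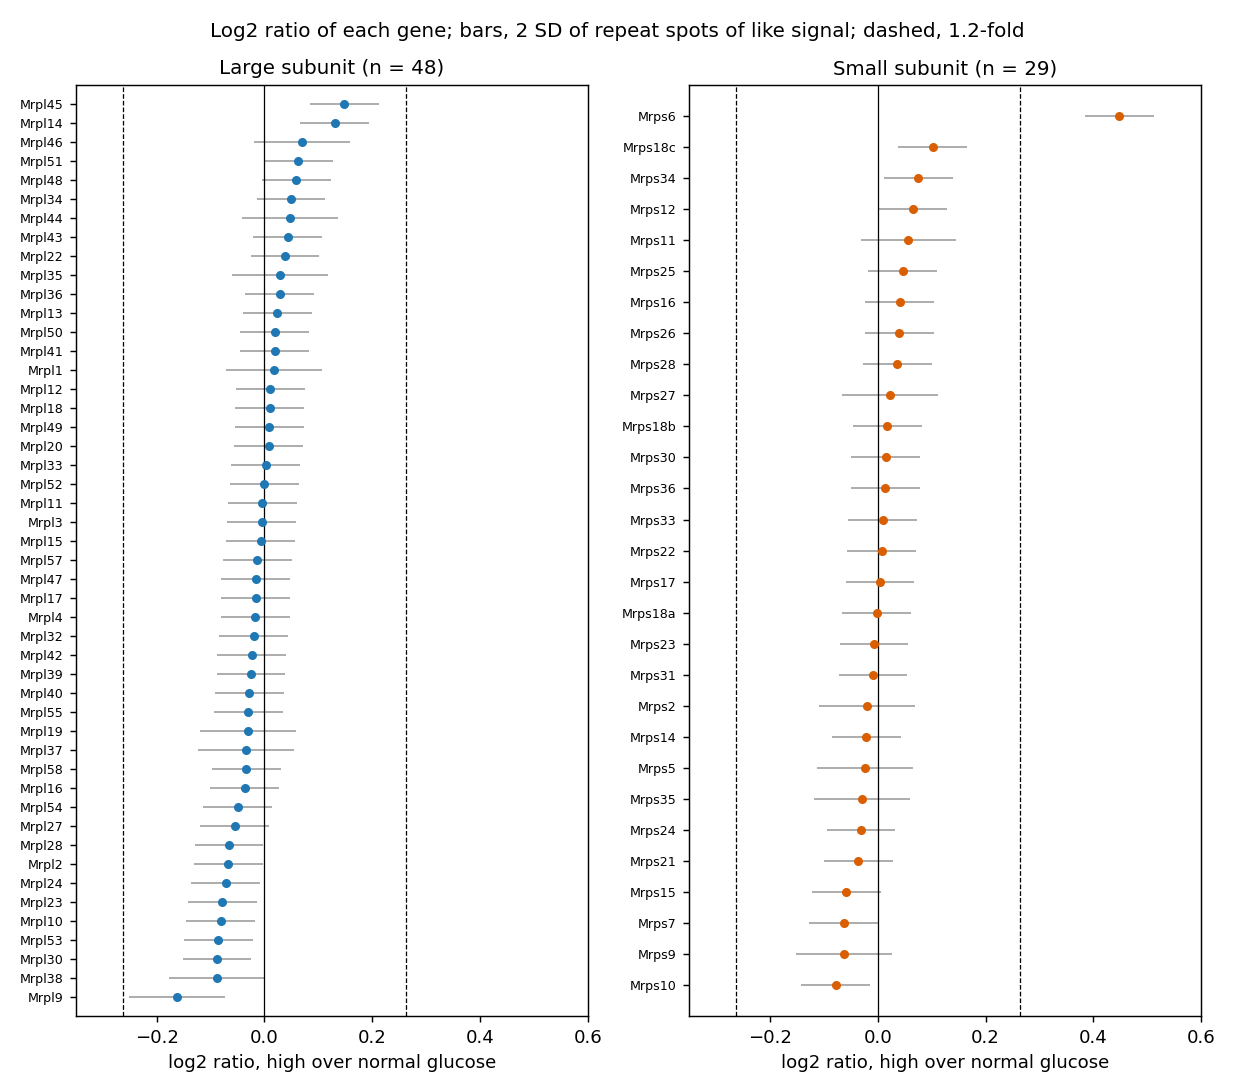
Each point is 1 gene (y) with its log2 ratio, high over normal glucose (x), sorted within the large (left) and small subunit (right). Bars are 2 SD of repeat spots of like signal, 0.0319 or 0.0445 per SD, and dashed lines mark 1.2-fold; most bars cross 0 and Mrps6 stands alone at 0.45.

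Printing error could be read directly for 3 members whose probe was printed 10 times. Mrpl34 had signals from 12789 to 14265 (median 13586) in normal and from 12453 to 13961 (median 13347) in high glucose, so the spots overlapped. Its log2 ratio was 0.049 ± 0.023 (SD, 10 spots of 1 array pair), higher in 10 of 10 spots. Mrpl50 had medians of 4804 (normal) and 4599 (high glucose) and a log2 ratio of 0.019 ± 0.020, higher in 9 of 10 spots. The scanner software marked 2 of its 10 spots as outliers on at least 1 array. Mrps35, of the small subunit, had medians of 2048 and 1906 and a log2 ratio of -0.029 ± 0.041, higher in 3 of 10. The mean ratio was thus above the SD over spots for Mrpl34, and below it for Mrpl50 and Mrps35. This SD describes single spots, and the error of a mean over 10 spots is smaller. The comparison therefore does not place these ratios inside printing error.

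A second probe, measured on both arrays, was present for 22 genes. Second probes had a median log2 ratio of -0.004, 10 higher and 12 lower, between -0.172 for Mrpl10 and 0.233 for Mrpl39, and none passed 1.2-fold. Of 4341 further probes of all named genes 14.5% passed it. Of these 4341, 2163 had log2 signals below 9 in normal glucose, whereas most second probes here were brighter. The probes of a gene had the same sign in 11 of 22 genes, and their median absolute difference was 0.059, above the repeat-spot SD of bright probes. Across these genes the ratios of first and second probe had a Pearson r of 0.12, or 0.57 over the 16 genes whose second probe had a log2 signal of at least 10 in normal glucose. These points share both arrays, and genes are not independent replicates.

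The larger disagreements came from dim second probes. Mrpl39 had -0.03 from its bright probe and 0.23 from a second probe with a signal of 267, and Mrps14 had -0.02 and 0.17, from a second probe at 338. Mrps2 had -0.02 and 0.16, from a second probe at 235. Of the 6 second probes below that level, 5 were higher, with a median of 0.147. The 16 brighter ones had a median of -0.050, 5 higher and 11 lower, against 0.006 for the first probes of the same genes. Among bright second probes, Mrpl10 had -0.17 beside -0.08 and Mrps7 -0.09 beside -0.06. Mrpl27 had -0.09 beside -0.06. For these 3 genes both probes were lower in high glucose, as they were for Mrpl4, Mrpl15 and Mrpl40. Both probes were higher for Mrpl49 (0.01 and 0.09), Mrps26 (0.04 and 0.04) and Mrps36 (0.01 and 0.05). Mrpl41 and Mrpl50, each at 0.02, had second probes at 0.00. Mrpl22, at 0.04 and -0.12, had probes of opposite sign.

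**Figure D3:**
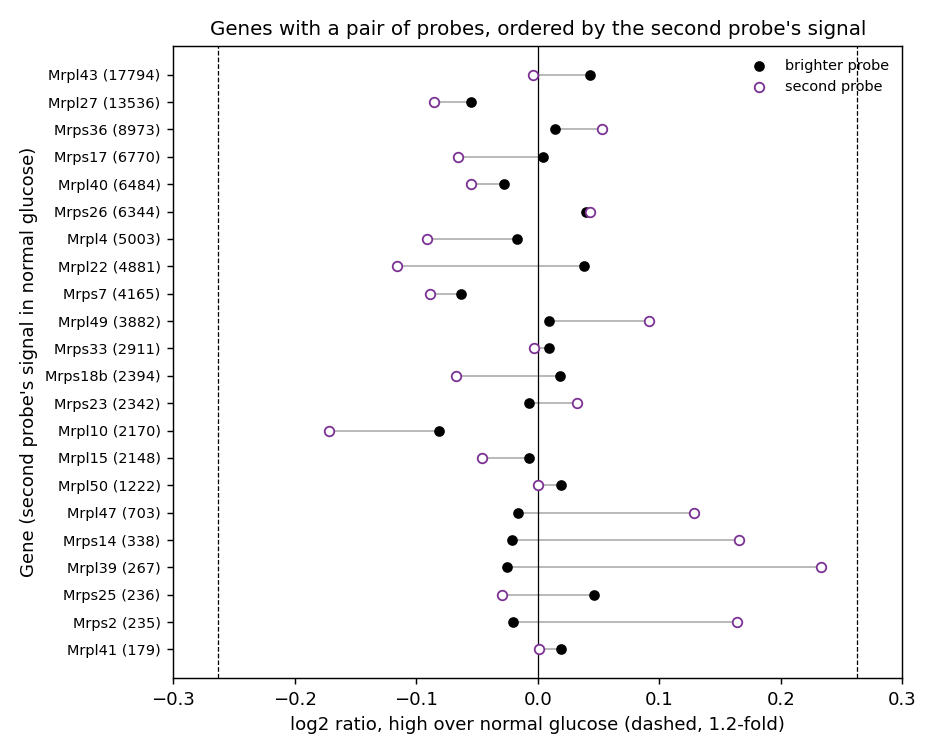
For 22 genes with a pair of probes, filled points give the log2 ratio of the brighter and open points that of the second probe (x); genes are ordered by the second probe's signal in normal glucose, printed beside each name. All points lie inside the dashed 1.2-fold lines, and 4 of the 6 dimmest second probes lie above 0.1.

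Mrps6, the mitochondrial counterpart of bacterial protein bS6, was the exception. It read 42668 in normal glucose and 55079 in high glucose, a log2 ratio of 0.45, or 1.36-fold higher, from 1 probe printed once. The median pixel gave 0.43, dim spots around it were shifted by -0.12, and neither spot was marked as an outlier. Among the brighter genes 0.55% had a higher ratio, and among all measured genes 2.79%. Mrps6 was singled out as the highest of 77 ratios, so these ranks describe it and are no test. The next member, Mrpl45, was at 0.15.

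Mrps6 starts beside another gene, so its start region is shown. In the RefSeq annotation of mouse assembly GRCm38.p6 it begins 14 bases after Slc5a3, on the same strand, and the spans of the genes overlap. Slc5a3 encodes the sodium-coupled transporter that brings myo-inositol, an organic osmolyte, into cells. The region lies at chr16:92058086-92058336 on the plus strand and ends at the start of Mrps6; it holds 74.5% G and C. The 15 capitals run from the first base of Slc5a3 to the first base of Mrps6.
Mrps6 and Slc5a3 start region: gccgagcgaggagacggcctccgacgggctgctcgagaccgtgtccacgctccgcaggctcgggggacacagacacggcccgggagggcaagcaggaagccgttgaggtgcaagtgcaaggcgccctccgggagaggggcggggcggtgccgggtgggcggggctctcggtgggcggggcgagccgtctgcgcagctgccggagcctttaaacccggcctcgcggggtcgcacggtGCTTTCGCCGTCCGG

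Slc5a3 was also higher in high glucose, by both of its probes. The brighter read 3441 in normal glucose and 4689 in high glucose, a log2 ratio of 0.53. The other, printed 10 times, had means of 1992 and 2812 and a log2 ratio of 0.58 ± 0.027 (SD, 10 spots). Median pixels gave 0.56 for each, and dim spots around them were shifted by 0.1 and 0.0. The overlapping genes thus had log2 ratios of 0.45, 0.53 and 0.58 over 3 probes. Whether the Mrps6 probe also detects transcripts of Slc5a3, and whether the values share a source, was not tested.

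Part of the family had a start window that overlapped that of a neighbour. Windows from 250 bases before to 50 after a start, from RefSeq on GRCm38.p6, matched 69 of the 78 genes by symbol. For 25 of these 69 the window overlapped that of another gene, in 24 cases on the opposite strand, and Mrps6 was the only one with a partner on its own strand. The starts lay from 8 to 332 bases apart. The share of all genes with such an overlap was not counted. Mrpl46 and Mrps11, of the large and the small subunit, are partners of each other, with starts 42 bases apart on opposite strands. Their start region is shown because it serves a gene of each subunit. It lies at chr7:78783059-78783161 of GRCm38.p6, is printed on the plus strand and holds 66.0% G and C. The 43 capitals run from the first base of Mrpl46, read leftward on the other strand, to the first base of Mrps11, read rightward.
Mrpl46 and Mrps11 start region: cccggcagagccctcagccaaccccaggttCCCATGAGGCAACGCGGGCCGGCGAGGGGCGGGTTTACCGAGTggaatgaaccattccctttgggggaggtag

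Mrpl46 read 2704 (normal) and 2684 (high glucose), and Mrps11 1977 and 1947. Their log2 ratios were close, 0.07 and 0.06, and each lay within 2 repeat-spot SDs of 0. Of partners on the opposite strand that were no members, 20 were measured beside their member. Their log2 ratios had a median of 0.020 and ran from -0.16 to 0.35, and 2 were past 1.2-fold, both dim. These were Ska3, a spindle protein beside Mrpl57, at 0.35 from 165 and 199, and Eme1, an endonuclease subunit beside Mrpl27, at 0.34 from 80 and 96. The members beside them had -0.01 and -0.06. Among all measured genes 6.8% were 1.2-fold higher and 5.51% lower, so 2 of 20 partners is near the general share.

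Several partners work in mitochondria themselves. Sars2, the mitochondrial seryl-tRNA synthetase, had 0.05 beside 0.07 for Mrps12, and Ndufb5 of complex I -0.01 beside -0.02 for Mrpl47. Twnk, the helicase of mitochondrial DNA, had -0.16 beside 0.04 for Mrpl43, from a signal of 309 in normal glucose. Fau, a cytosolic ribosomal protein precursor, had 0.03 beside 0.01 for Mrpl49. Among other partners, Mitd1 had -0.09 as did Mrpl30, and Tmem63b had 0.09 beside 0.13 for Mrpl14. Further pairs had opposite signs. Among these, Klc4 had 0.11 beside -0.07 for Mrpl2, and Hira 0.16 beside -0.03 for Mrpl40. Cyb5rl had 0.15 beside -0.03 for Mrpl37. Helq had -0.02 beside 0.10 for Mrps18c, and Ptcd2 -0.06 beside 0.02 for Mrps27.

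**Figure D4:**
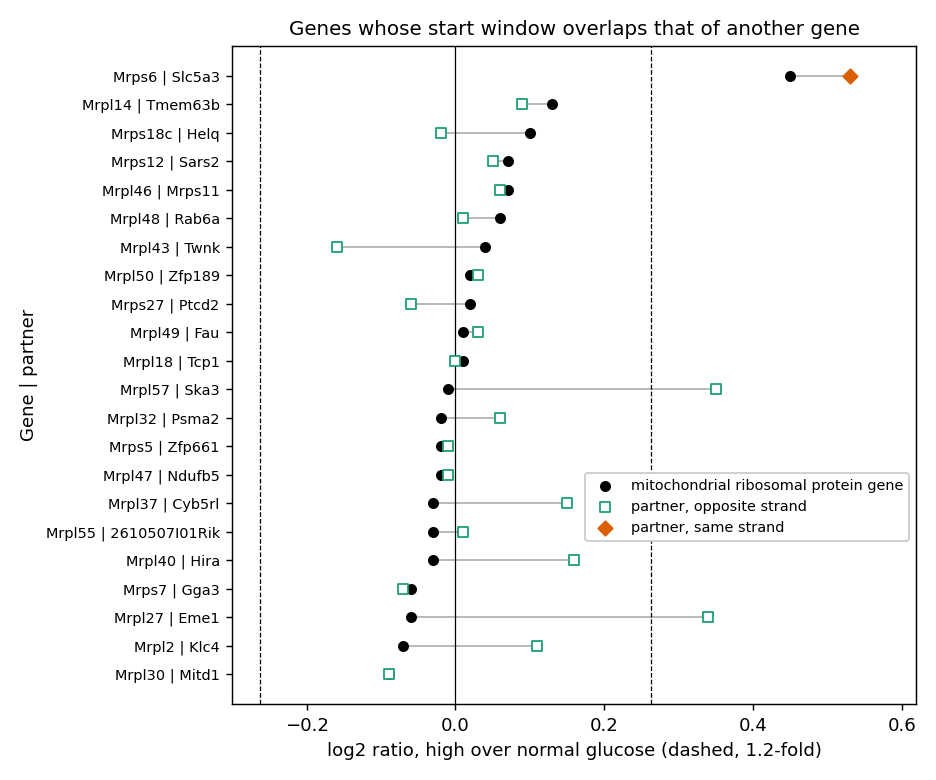
For 22 pairs with overlapping start windows and both genes measured, filled circles give the log2 ratio of the mitochondrial ribosomal protein gene and open squares or the diamond that of its partner on the opposite or same strand (x); dashed lines mark 1.2-fold. Mrps6 and Slc5a3 are the only pair with both genes outside the lines.

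The start windows were searched for words read by factors known to control nuclear genes for mitochondria. A larger share of the family than of all genes held 3 of the 4 words, a description with no test. Letters were searched on both strands, and a match is a description, not a binding site. The ETS word CCGGAAGT, read by the factor GABPA, was present in 12 of 69 genes (17.4%), against 4.31% of all 27025 genes with a window and 5.69% of protein-coding ones. The YY1 word AAGATGGC was present in 12 of 69 (17.4%), against 3.19% and 3.57%. The NRF1 core TGCGCATGC was present in 6 of 69 (8.7%), against 1.72% and 2.23%. The E-box CACGTG was present in 5 (7.2%), against 8.09% and 8.91%.

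At least 1 of the ETS, YY1 and NRF1 words was present in 28 of 69 genes. The share of all genes with at least 1 of them was not counted, so this count has no background beside it. None of the 4 words was in the Mrps6 window. The family's windows also held more G and C, whose part in these shares was not tested: median content was 58.7% in the windows of the family and 52.7% in all 32851 windows. The median log2 ratio was 0.016 for members with the ETS word, 0.004 with YY1 and -0.018 with NRF1. The mRNAs of the factors were near level too. Gabpa had a log2 ratio of -0.06 from 3178 and 2881, Yy1 -0.09 from 4914 and 4356, and Nrf1 -0.09 from 1401 and 1244. The other measured probes of Nrf1 gave 0.39 and -0.03.

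Among other genes of mitochondrial translation, none of 75 measured genes in 5 lists passed 1.2-fold by its brightest probe. The shares over all measured genes were 6.8% higher and 5.51% lower. Of 23 further probes for these genes 4 did (17.4%), all dim, against 14.5% of 4341 further probes of all named genes. They were 1 each of Gadd45gip1 (0.33), Mrrf (0.28), Nrf1 (0.39) and Tfam (-0.41), with signals from 61 to 167 in normal glucose. Among further probes with log2 signals below 9 in normal glucose, the share was 30.8% of 13 in these lists, against 23.6% of 2163. The 5 proteins of the particle with other names had a median of 0.009. Among them, Dap3, a GTP-binding protein of the small subunit, had 0.01 from 30195 and 28795, and Ptcd3 -0.04 from 18017 and 16569. Gadd45gip1 of the large subunit had 0.01 from its bright probe.

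Assembly and rRNA modification genes had a median of -0.004 over 25 of 26 genes, 9 higher and 16 lower. Mrm1, a methyltransferase of the large rRNA, was highest at 0.14 from 3792 and 3947, and Mpv17l2 and Mettl17 lowest, both at -0.15. Malsu1, which binds Mrpl14 and keeps the subunits apart during assembly, had 0.04. Translation factors had a median of -0.003 over 14 of 15, 6 higher and 8 lower. Mtif2, the initiation factor, had 0.19 from 51271 and 55167. Mtif3, also of initiation, had -0.00. Of the elongation factors, Tufm had -0.13 from 11849 and 10254, Gfm1 -0.12 from 12791 and 11101, and Tsfm 0.04 from 1378 and 1337.

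Mitochondrial aminoacyl-tRNA synthetases had a median of -0.024 over 16 of 17, 5 higher and 11 lower, from Wars2 at -0.17 to Hars2 at 0.10. The second probe of Wars2 gave 0.17. The transcription list had -0.005 over 15 of 16. In it Tfam, which packs and transcribes mitochondrial DNA, had -0.04 from 3536 and 3259, with -0.41 and -0.03 from its other probes. Polrmt, the polymerase, had 0.09 from 3099 and 3116. Ppargc1a, a coactivator of mitochondrial biogenesis, was dim, at 65.6 and 56.9, with -0.13.

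Cytosolic ribosomal proteins and respiratory chain subunits differed as little between the pools. The 84 measured cytosolic genes had a median of 0.013 and an SD of 0.067, with 54 higher and 30 lower, or 35 and 47 after quantile normalization and 9 and 75 after median centring. The 82 measured respiratory chain genes had -0.006 and 0.078, with 36 higher and 46 lower. The share within 0.1 of 0 was 94.0% and 92.7%, beside 93.5% in the mitochondrial ribosome. Each family had 1 gene past 1.2-fold, by its brightest probe, singled out after the values were seen. Rpl5 of the cytosolic large subunit had 0.43 from 48921 and 62376, and Cox6a2, a muscle form of a cytochrome oxidase subunit, -0.49 from 506 and 341. Dim further probes past 1.2-fold were those of Rpl6, at 1.25 from 77 and 174, and Cox7c, at -0.29 from 198 and 153. With 1 array per condition the differences between the 3 families were not tested.

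**Figure D5:**
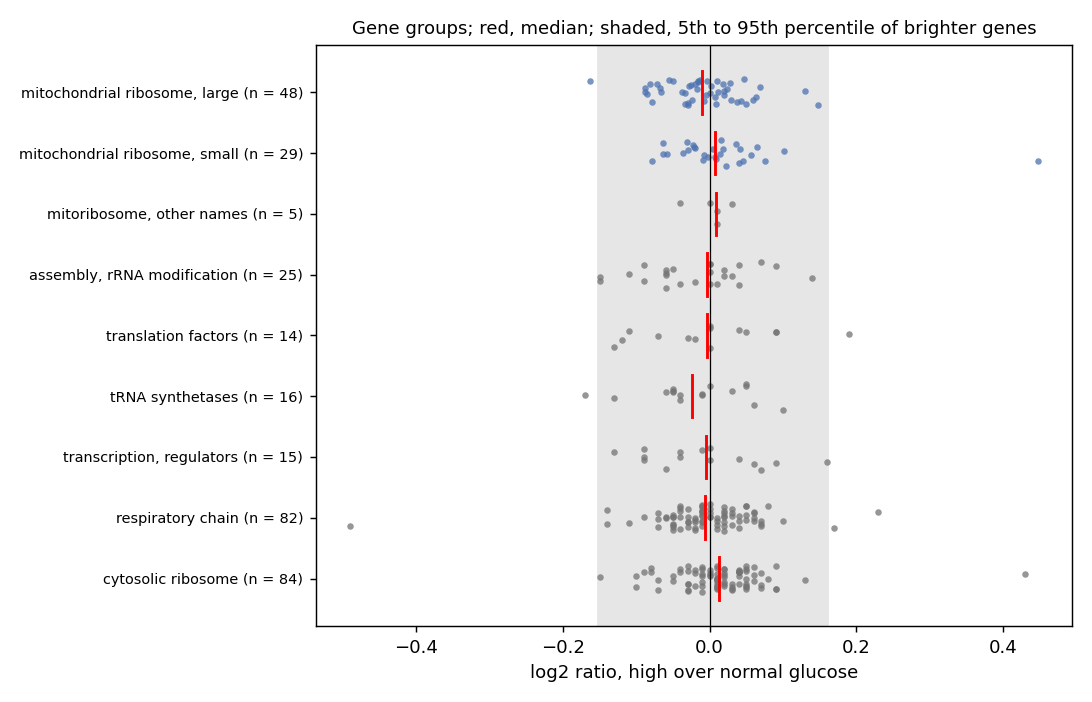
Each point is 1 measured gene with its log2 ratio, high over normal glucose (x), spread vertically at random within its group (y); red lines are group medians and the shaded band the 5th to 95th percentile of the 7088 brighter genes, -0.152 to 0.162. All medians lie between -0.024 and 0.013; Mrps6, Rpl5 and Cox6a2 lie far outside the band, and a few other genes just beyond it.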

How the data were processed

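The deposited intensity values came, per the file headers, from Feature Extraction 11.5.1.1 on 1-colour scans of an Agilent mouse design drawn on mm9; the submitters' processing notes name version 9.3.2.1. The processed signal is linear, background-subtracted and detrended within the array, and was not scaled between arrays. The same intensity fills the value table that the authors deposited: 55249 of 55249 probes printed once matched within a relative tolerance of 0.0001, and its column medians were 49.6 and 48.9.

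The log2 of the processed signal was averaged over spots of a probe, less the 75th percentile of all 55681 probes of its array. RefSeq accessions without versions, matched to the GRCm38.p6 table, gave 27509 probes 1 symbol and left 28172 unnamed. RefSeq holds 84 symbols of the family there, 6 of them pseudogenes with no probe named here. The brightest probe stood for a gene. It counted as measured when at least 0.5 of its spots were well above background on both arrays. Dim neighbours are background-level spots at most 2 rows and columns away; their shift is relative to all such spots.

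Members could all be named. Described in full were those past 1.2-fold, the 5 highest and lowest of each subunit, the unmeasured and the Mrps18 paralogs. So were genes whose probes agreed in sign or lay furthest apart. Members and lists were chosen with earlier results of these data known. The result of 1 further marker list is not reported here. The scanner files hold no mean spot signal, so normexp used the median. The ratio calculation was run on simulated data with planted ratios far larger than those of this family, so small ratios were not tested. Python 3.11.15, R 4.3.3 and limma 3.58.1 were used.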

Additional observations from a re-analysis of the deposited data

How the results depend on the processing

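Of 11 alternatives run on all results, the medians moved by more than the repeat-spot SD only when each array was centred on its median: to -0.071 for the large subunit, -0.054 for the small and -0.065 for all members, while the median of all genes moved to -0.068. The large minus small difference ran from -0.021 to -0.009 over 13 alternatives. Median centring and the percentile over detected probes shift all ratios alike, so they could not change this difference. Mrps6 had log2 ratios from 0.387 to 0.476 and was the only member past 1.2-fold in all 11; left out, a choice made after the data were seen, it took the count to 0. Other members ran from -0.223 (Mrpl9) to 0.156 (Mrpl45). Of 842 member values under alternatives, 719 moved by less than the repeat-spot SD. Many of these could not move. The deposited value table, no filter on dim probes, brighter genes only and outlier spots left out reuse the same values for nearly all members. Members below 1.2-fold turned sign or reached 0 under 7 alternatives: 29 of 77 under median centring, 15 with the position trend removed, 13 with normexp, 8 with the median over probes, 7 with quantile normalization, 5 each with cyclic loess and the percentile over detected probes, and 0 in the other 4. Differences near the repeat-spot SD cannot be told from printing error. No paired analysis was possible because each condition has 1 array.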
